A study of Mus musculus with 8 samples.

Results

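The mitoribosomal protein genes of mouse were followed in intestinal epithelial cells that lacked RANK. They were taken as the protein-coding genes whose symbols start with Mrpl or Mrps and a digit, and 78 of the 54532 genes in the count table met this rule. The 76 with at least 20 counts over the 8 libraries are described. Mrps18b, with 16 counts, and Mrpl53, with 1 count, lay below this limit, and Mrps36, with 25 counts, Mrpl22, with 44, and Mrps33, with 66, lay just above it. The rule rests on names and on summed counts, and no difference between genotypes was used in it.

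Cells came from lactating female mice on a C57BL/6J background at lactation day 5, 4 WT and 4 Rank-knockout, with 1 library per mouse. Rank (Tnfrsf11a) encodes the receptor for RANKL, and per the study's methods a floxed allele was removed by Cre under the Villin1 promoter, so that the deletion was directed to the intestinal epithelium and other cells kept the receptor. WT and deleted females were littermates mated to C57BL/6J males, and were matched for age, with no single age stated for these libraries. Cells were released with a dissociation reagent and passed through a strainer with no sort, and RNA was read as 3′ tags, about 1 per transcript whatever its length. The comparison asks which transcripts of the lactating epithelium depend on RANK.

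Mitochondria keep a ribosome of their own, which translates the few proteins encoded by mitochondrial DNA, all of them parts of the oxidative phosphorylation complexes. Its ribosomal RNAs are transcribed inside the organelle, whereas its proteins are encoded in the nucleus, made in the cytosol and imported. Some of these proteins descend from those of the bacterial ribosome and others were added in the course of mitochondrial evolution. Of the 78 genes, 51 encode proteins of the large subunit, among them Mrps30 and Mrps18a despite their names, 26 encode proteins of the small subunit, and Mrps36 is now assigned to the 2-oxoglutarate dehydrogenase complex. In a grouping made by hand, 45 were classed as homologues of bacterial ribosomal proteins and 30 as specific to mitochondria, while Mrpl55, Mrps18a and Mrps36 were not classed. The 30 include Mrps18b, although proteins of the Mrps18 family are related to a protein of the bacterial small subunit. The genes are spread over 17 chromosomes. Reads of the mitochondrial chromosome were removed by the authors before counting, so the ribosomal RNAs and the proteins this ribosome makes were not analysed here.

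Libraries held 1530781 to 4335653 counts, and the medians were 1609942.5 for WT and 3070751 for Rank-knockout, so most WT values carry the larger counting error. The genotypes separated on the first principal component, with 50.6% of the variance. Of 9 epithelial marker genes tested, 3 were higher and 2 lower in Rank-knockout, Vil1 among the latter, and their sum was 9716 to 10697 CPM (counts per 1000000) in WT libraries and 8244 to 10571 CPM in Rank-knockout libraries. The 9 immune cell markers summed to 29.1 to 51.5 CPM in WT libraries and 22.2 to 37.6 CPM in Rank-knockout libraries, with Cd79a at 0 in all, and 9 stromal and muscle markers summed to 5.28 to 8.15 and 2.23 to 11.2 CPM. Tnfrsf11a had counts in every library, 61 to 196 in WT and 79 to 179 in Rank-knockout (log2 fold change -0.67 ± 0.22 (SE), edgeR adjusted p = 0.0322), and since 3′ tags need not lie in the deleted part they do not check the deletion. Of 9855 genes tested with edgeR, 1555 were higher and 1438 lower in Rank-knockout at an adjusted p under 0.05, a split that became 2566 and 859 with library totals in place of TMM scaling and 2164 and 1016 with library sizes that leave out the 50 most abundant genes. Library totals moved the median log2 fold change of all tested genes from 0.02 to 0.22, and the medians of gene groups are therefore also given relative to this median.

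Mitoribosomal protein mRNAs were higher in the epithelium of Rank-knockout mice. Of the 73 genes that passed the filter on low counts, 41 rose and 0 fell with edgeR, where 15.8% of all tested genes rose and 14.6% fell. At an unadjusted p under 0.05, 53 members were higher and 0 lower, beside 21.8% and 20.1% of all tested genes. DESeq2 called 36 higher and 0 lower, and the background there was 11.9% and 13.2%. The fold change lay above 0 in 71 of 73 members, as it did in 51.7% of all tested genes. The median log2 fold change of the tested members was 0.56, which is 0.53 above the median of all tested genes, and with library totals it was 0.54 above that median, where 62 members were called, beside 26.0% of all tested genes higher and 8.72% lower. Among the called genes the fold change ran from 1.32 to 2.45 with a median of 1.64, and 30 of the 41 reached 1.5-fold but only 3 reached 2-fold. CPM values did not overlap between the genotypes in 39 of the 41, where 11.9% of all tested genes were called higher without overlap, and the exceptions were Mrpl50 and Mrps7.

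One WT library weighed on these counts. WT replicate 4 had the lowest level of the WT group in 45 of the 73 members, and without it 22 genes were called higher, all of them among the 41, with 0 lower and a median of 0.48. The number called higher over all genes fell in the same step to 1020. In the Rank-knockout group, replicate 1 had the highest level in 36 members and replicate 4 the lowest in 31.

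The summed level of all 76 genes was 3839, 4445, 3993 and 3263 CPM in WT replicates 1 to 4 against 6050, 5582, 5887 and 5133 CPM in the Rank-knockout libraries. Each of the Rank-knockout libraries lay above each of the WT libraries, with means of 3885 ± 488 and 5663 ± 403 CPM (SD, n = 4) and a ratio of 1.46. Without scaling factors, 0.306% to 0.408% of all counts of a WT library and 0.546% to 0.665% of those of a Rank-knockout library fell on these genes. The sum did not rest on the most abundant member, since without Mrpl12 the ratio was 1.44. In a bulk sample, a change in the number of cells of a type and a change in RNA per cell cannot be told apart.

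The gene with the smallest p was Mrps12 (ENSMUSG00000045948, GRCm38 chr7:28739641-28741820, minus strand), which encodes the conserved small subunit protein of the decoding centre. Its level was 99.2, 99.0, 90.8 and 97.7 CPM in WT against 155, 200, 214 and 172 CPM in Rank-knockout, a log2 fold change of 0.93 ± 0.14 (SE, n = 4 per genotype, edgeR adjusted p = 0.000384). All WT libraries were tightly grouped below the lowest Rank-knockout library. Mrps9 (ENSMUSG00000060679, chr1:42851233-42905683, plus strand), another small subunit protein with a bacterial homologue, had 46.2, 43.2, 39.3 and 25.8 CPM in WT against 78.1, 71.1, 88.8 and 80.8 CPM in Rank-knockout. Its log2 fold change was 1.03 ± 0.18 (edgeR adjusted p = 0.000748), and WT replicate 4 was the low point of a group that stayed below all Rank-knockout libraries.

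Genes of mitochondria-specific ribosomal proteins were also among those called. Mrpl38 (ENSMUSG00000020775, chr11:116131817-116138868, minus strand), of the large subunit, had 34.0, 38.0, 39.3 and 33.7 CPM in WT against 74.1, 62.2, 63.3 and 58.8 CPM in Rank-knockout (log2 fold change 0.83 ± 0.16, edgeR adjusted p = 0.00125). Mrps35 (ENSMUSG00000040112, chr6:147042764-147073991, plus strand), of the small subunit, had 51.6, 59.6, 50.8 and 46.2 CPM in WT against 95.6, 80.8, 91.0 and 88.4 CPM in Rank-knockout (0.76 ± 0.15, edgeR adjusted p = 0.00145). In both genes a gap separated the genotypes. Large subunit genes with bacterial homologues gave similar values, with log2 fold changes of 0.87 ± 0.17 for Mrpl21 and 0.86 ± 0.19 for Mrpl13 (edgeR adjusted p = 0.00154 and 0.00307), and the small subunit genes Mrps14 and Mrps6 had 0.96 ± 0.21 and 0.81 ± 0.18 (edgeR adjusted p = 0.00362 and 0.00423). Mrps6 shares exonic sequence on its own strand with Slc5a3, so that reads in the shared part cannot be assigned to either by position.

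Mrpl12 (ENSMUSG00000039640, chr11:120484613-120489065, plus strand) was the most abundant member. It encodes the homologue of the bacterial stalk protein, which recruits translation factors to the ribosome. It had 623, 837, 596 and 522 CPM in WT against 1092, 1042, 1028 and 839 CPM in Rank-knockout, a log2 fold change of 0.63 ± 0.16 (edgeR adjusted p = 0.00846). WT replicate 2 lay just below Rank-knockout replicate 4, and the groups did not overlap. Mrpl37, a mitochondria-specific protein of the large subunit, was among the 5 most abundant members and had 134, 180, 133 and 100 CPM in WT against 282, 219, 230 and 198 CPM in Rank-knockout (0.75 ± 0.17, edgeR adjusted p = 0.00463). Mrps15 and Mrpl24, which were also among the 5 most abundant members, had log2 fold changes of 0.26 ± 0.15 and 0.11 ± 0.14 with overlapping genotypes (edgeR adjusted p = 0.212 and 0.581). With library totals these were 0.45 and 0.31, and Mrps15 was then called higher (edgeR adjusted p = 0.0281 and 0.0880).

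**Figure D1:**
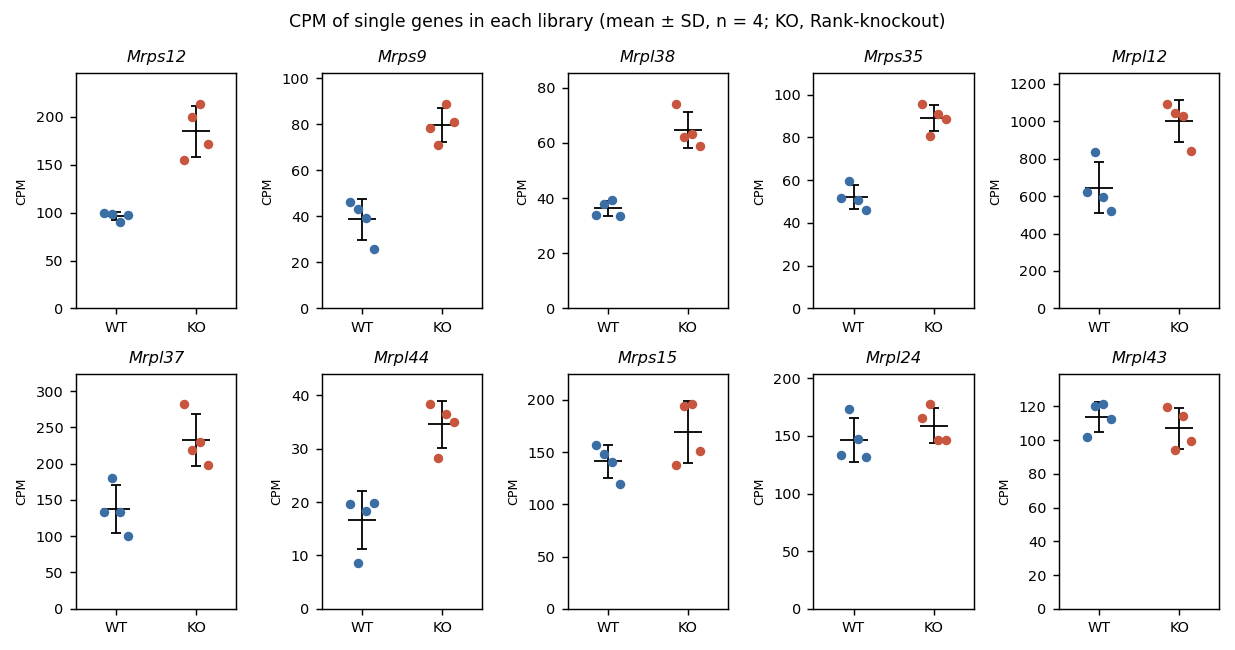
Level of 10 mitoribosomal protein genes in each library, in CPM (vertical axes, starting at 0), for WT (blue) and Rank-knockout (red, KO), with mean ± SD (n = 4) in black. Mrps12, Mrps9, Mrpl38, Mrps35, Mrpl12, Mrpl37 and Mrpl44 have no overlap between the genotypes, whereas Mrps15, Mrpl24 and Mrpl43 overlap.

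Members with textbook roles in translation were looked at by role. Mrpl3 encodes a large subunit protein near the peptidyl transferase centre and had 12.2, 19.9, 12.9 and 11.9 CPM in WT against 24.4, 33.9, 31.7 and 28.0 CPM in Rank-knockout (0.98 ± 0.22, edgeR adjusted p = 0.00369). Mrpl44 (chr1:79776018-79781445, plus strand) encodes a large subunit protein related to ribonuclease III and had 19.7, 8.55, 18.3 and 19.8 CPM against 38.3, 28.3, 36.6 and 35.04 CPM (1.14 ± 0.25, edgeR adjusted p = 0.00326). WT replicate 2 was the high point for Mrpl3 and the low point for Mrpl44, and neither gene overlapped between genotypes. Mrps16 and Mrps22, small subunit genes in which human mutations cause a combined defect of the respiratory chain, had log2 fold changes of 0.51 ± 0.17 and 0.86 ± 0.24 (edgeR adjusted p = 0.0342 and 0.0121). Both calls were lost without WT replicate 4, with edgeR adjusted p = 0.146 and 0.0524. Mrps22 kept its call in the other 16 of 17 alternative settings, whereas Mrps16 lost its call in 5 of 17, the others being DESeq2 (adjusted p = 0.0507) and edgeR without WT replicate 1 (0.101) or without Rank-knockout replicate 2 (0.103) or 3 (0.0824). Mrps34, another gene of this kind, did not pass the test (0.47 ± 0.19, edgeR adjusted p = 0.0775), nor did Mrpl58, which encodes a peptidyl-tRNA hydrolase built into the large subunit (0.22 ± 0.19, edgeR adjusted p = 0.401). Mrps34 was called higher in 6 of 17 alternative settings, namely with the replicate block, with every gene kept whatever its count, with library totals, with sizes that leave out the top 50 genes, and without WT replicate 2 or Rank-knockout replicate 4. Mrps34 overlaps Nme3 on its own strand.

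The genes of the Mrps18 family differed in level and in their tests. Mrps18a, whose protein sits in the large subunit, had 41.5, 52.3, 48.8 and 36.3 CPM in WT against 70.3, 73.3, 79.4 and 54.4 CPM in Rank-knockout (0.61 ± 0.17, edgeR adjusted p = 0.0132), with adjusted p = 0.0618 by edgeR without WT replicate 4 and 0.0520 without WT replicate 1. Mrps18c had 25.1, 17.1, 21.7 and 16.5 CPM against 21.9, 22.7, 24.5 and 19.6 CPM, with overlap (0.16 ± 0.20, edgeR adjusted p = 0.590). Mrps18b was below the limit on counts. The differences between these genes in response were not tested. Mrps30, whose product is also a large subunit protein, was at the edge of the call (0.51 ± 0.19, edgeR adjusted p = 0.049998) and lost it under 10 of 17 alternative settings, among them the removal of 6 of the 8 single libraries.

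Of the 5 members with the largest log2 fold changes, Mrps28, Mrps10 and Mrps21 had mean levels under 10 CPM, and Mrpl44 and Mrps9, described above, had 25.6 and 59.2 CPM. Mrps28 had 3.40, 0.251, 6.10 and 3.30 CPM in WT against 9.69, 3.35, 7.14 and 11.2 CPM in Rank-knockout, where the value of WT replicate 2 stands for 1 count. Its log2 fold change of 1.604 ± 0.59 did not pass the test (edgeR adjusted p = 0.0546), and the ranges overlapped. It was called higher in 6 of 16 alternative settings, namely with the replicate block, with every gene kept whatever its count, with library totals, with sizes that leave out the top 50 genes, and without WT replicate 3 or Rank-knockout replicate 2. Mrps10 passed with 2.77 to 4.06 CPM in 3 WT libraries, 1.98 CPM in WT replicate 4, and 4.63, 7.44, 11.6 and 7.06 CPM in Rank-knockout (1.29 ± 0.38, edgeR adjusted p = 0.0182). Its call was lost without WT replicate 4 (edgeR adjusted p = 0.0603) and without Rank-knockout replicate 3 (0.0627). Mrps21, at 0.251 to 10.2 CPM in WT, had 1.05 ± 0.64 (edgeR adjusted p = 0.233). Single WT libraries decided this value, which was 2.11 and called without WT replicate 3 (edgeR adjusted p = 0.0188) and 0.37 without WT replicate 2 (0.551).

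At the other end, Mrpl23 and Mrpl43 were the members with a log2 fold change below 0. Mrpl23, a protein of the polypeptide exit tunnel, had 5.44, 4.27, 6.77 and 7.26 CPM in WT against 4.63, 2.23, 3.12 and 5.23 CPM in Rank-knockout (-0.52 ± 0.36, edgeR adjusted p = 0.294), with overlap, and 1 pseudogene named after it held 6 counts beside its own 101. Mrpl43 had 102, 120, 121 and 112 CPM against 120, 94.2, 114 and 99.6 CPM (-0.09 ± 0.14, edgeR adjusted p = 0.653), and its sign turned to 0.11 with library totals and 0.04 without the 50 most abundant genes. Mrpl27 had 17.0, 4.52, 27.1 and 21.1 CPM against 17.5, 14.5, 15.2 and 20.7 CPM (0.08 ± 0.40, edgeR adjusted p = 0.898), and its log2 fold change was -0.35 without WT replicate 2, -0.02 without Rank-knockout replicate 4 and -0.0041 with DESeq2. Of the 32 tested members that were not called, 30 had a log2 fold change above 0, and Mrpl49 and Mrpl9 had no overlap between the genotypes (edgeR adjusted p = 0.0639 and 0.0918).

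Among the 3 members left out by the filter, Mrpl22 had 0, 10, 1 and 1 counts in WT and 10, 4, 7 and 11 in Rank-knockout. Mrps33 had 5, 5, 8 and 4 counts in WT and 16, 12, 4 and 12 in Rank-knockout, and Mrps36 had 1, 1, 4 and 3 against 9, 2, 2 and 3. In CPM, which allow for depth, Mrpl22 had 0, 2.51, 0.677 and 0.660 in WT against 2.11, 1.49, 3.12 and 2.88 in Rank-knockout, with overlap. With no filter on low counts none of the 3 was called by edgeR, with log2 fold changes of 0.89 ± 0.62 for Mrpl22, 0.22 ± 0.50 for Mrps33 and -0.01 for Mrps36, whose SE is not given because it cannot be derived stably from a fold change this close to 0 (adjusted p = 0.412, 0.814 and 0.998). For Mrps36 the 3 pseudogenes named after it held 49 counts, more than the gene itself.

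Called genes that kept their call under every alternative setting numbered 20, and no such count was made over all tested genes. Of the large subunit these were Mrpl2, Mrpl3, Mrpl11, Mrpl12, Mrpl13, Mrpl21, Mrpl35, Mrpl37, Mrpl38, Mrpl42, Mrpl44, Mrpl46 and Mrpl52, and of the small subunit Mrps2, Mrps5, Mrps6, Mrps9, Mrps12, Mrps14 and Mrps35. Over these settings the log2 fold change of Mrps12 ran from 0.86 to 1.13 and that of Mrpl12 from 0.51 to 0.83, with the highest adjusted p over the edgeR, DESeq2 and limma fits at 0.00223 and 0.0478. The called genes whose ranges overlapped were named above, and Mrpl50 had 28.5, 18.6, 33.9 and 22.5 CPM in WT against 45.9, 36.1, 45.5 and 31.9 CPM in Rank-knockout (0.66 ± 0.21, edgeR adjusted p = 0.0289), where WT replicate 3 lay above Rank-knockout replicate 4.

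The response was spread over both subunits. In the large subunit 27 of 49 tested genes rose with a median log2 fold change of 0.52, and in the small subunit 14 of 24 rose with a median of 0.68. The summed level went from 2852 ± 369 to 4081 ± 307 CPM in the large subunit, 1.43-fold, and from 1031 ± 123 to 1581 ± 115 CPM in the small subunit, 1.53-fold (SD, n = 4). The ratio of the large to the small sum was 2.63, 2.84, 2.82 and 2.78 in WT and 2.74, 2.55, 2.45 and 2.59 in Rank-knockout, so that the ranges overlapped. By descent, 25 of 44 bacterial homologues were called at a median of 0.55 and 15 of 27 mitochondria-specific genes at a median of 0.57. By abundance, 5 of 12 genes with a mean under 20 CPM were called, 13 of 23 genes with 20 to 50 CPM, and 23 of 38 genes with 50 CPM or more. None of these contrasts between classes of members was tested.

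**Figure D2:**
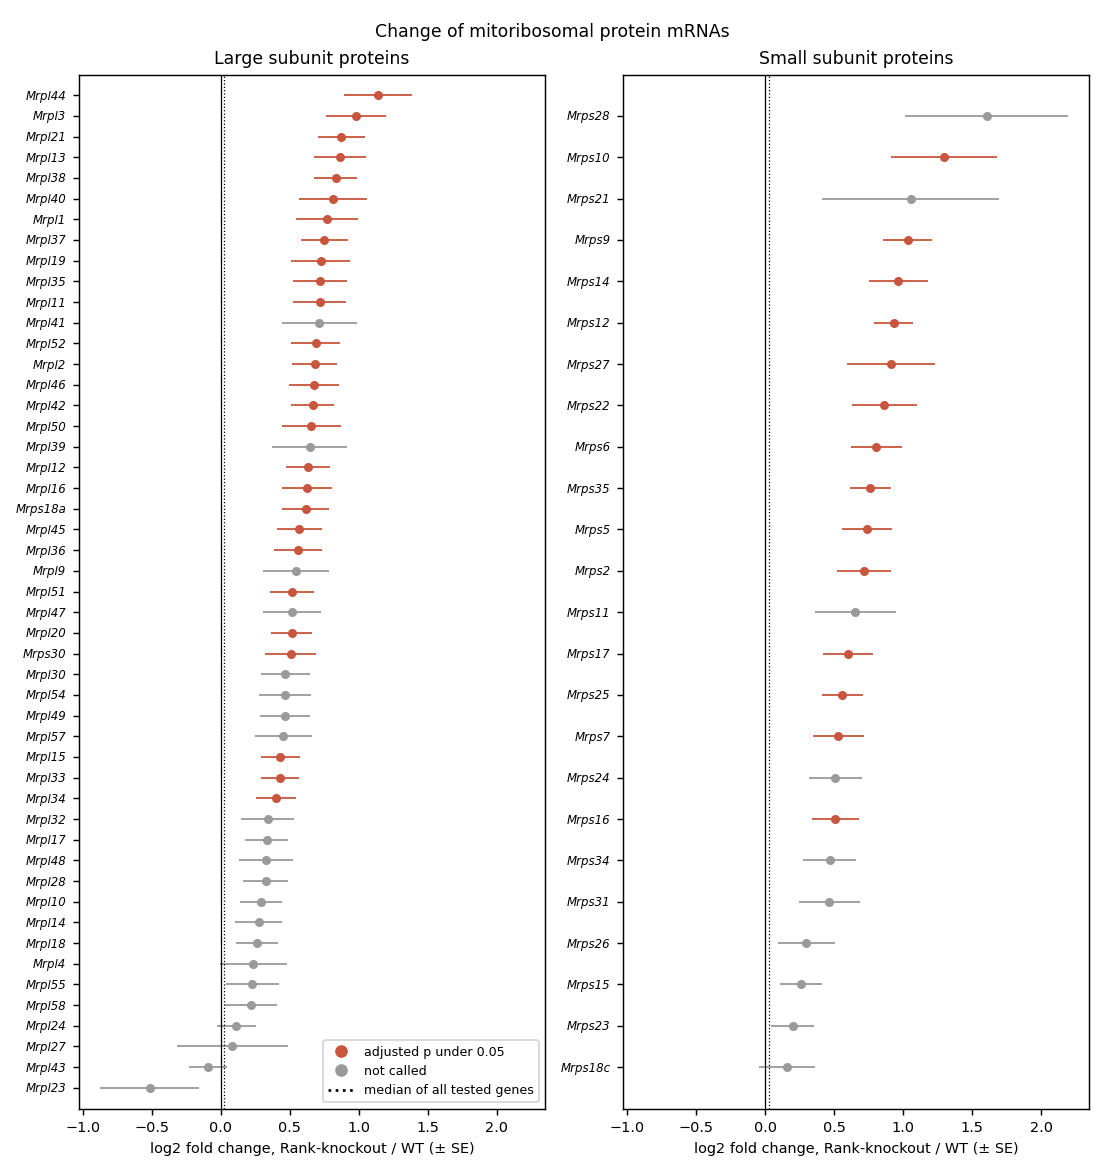
Log2 fold change of Rank-knockout over WT (horizontal axis, ± SE, n = 4 per genotype) for the 49 large and 24 small subunit genes tested, in red where the edgeR adjusted p is under 0.05. Points lie to the right of the median of all tested genes (dotted line, 0.02) except for Mrpl23 and Mrpl43, and Mrpl43 moves above 0, to 0.11, with library totals, which also move the dotted line to 0.22.

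Other parts of mitochondrial gene expression were examined with lists of companion genes. Transcription and RNA processing had 7 genes higher and 0 lower of 11 tested, with a median log2 fold change of 0.54. The 7 are 63.6%, beside 15.8% of all tested genes. DESeq2 called 4 higher, beside 11.9% of all tested genes. Lrpprc, which stabilises mitochondrial mRNAs, had 311, 483, 276 and 226 CPM in WT against 710, 602, 658 and 586 CPM in Rank-knockout without overlap (0.97 ± 0.20, edgeR adjusted p = 0.00209). Tfam, which packages mitochondrial DNA and starts its transcription, had 27.2, 21.1, 46.1 and 25.1 CPM against 54.1, 39.8, 61.1 and 45.5 CPM (0.78 ± 0.23, edgeR adjusted p = 0.0181), with WT replicate 3 inside the Rank-knockout range. Tbrg4, a mitochondrial RNA-binding protein, had 0.65 ± 0.17 (edgeR adjusted p = 0.00906).

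Of the assembly factors, 8 rose (33.3%, beside 15.8% of all tested genes) and 0 fell (beside 14.6%) of 24 tested, with a median of 0.61. DESeq2 called 5, where it called 11.9% of all tested genes higher. Mrm3, which methylates the large ribosomal RNA, had a log2 fold change of 1.19 ± 0.23, Rcc1l, an assembly factor of the large subunit, 0.92 ± 0.21, and Fastkd2, an RNA-binding protein of large subunit assembly, 1.12 ± 0.26 (edgeR adjusted p = 0.00142, 0.00471 and 0.00498). Of the mitochondrial aminoacyl-tRNA synthetases, 5 rose (33.3%) and 0 fell of 15, with a median of 0.59. Those of smallest p were Mars2, Ears2 and Vars2 at 1.32 ± 0.31, 0.96 ± 0.26 and 0.71 ± 0.20. Of the 13 translation factors tested, 2 were higher (15.4%, beside 15.8% of all tested genes) and 0 lower, with a median of 0.39. These were Tsfm, the exchange factor for the elongation factor Tu, at 1.24 ± 0.29, and Gfm1, the translocation factor, at 0.93 ± 0.23 (edgeR adjusted p = 0.00499 and 0.00622). The mitoribosomal subunits with other names had 1 call of 5, Gadd45gip1 (0.97 ± 0.19, edgeR adjusted p = 0.00179), with a median of 0.41. Import into mitochondria had 8 higher (40.0%) and 0 lower of 20, with a median of 0.40. Timm10, Timm9 and Timm50 had the smallest p, with log2 fold changes of 1.01 ± 0.17, 0.96 ± 0.17 and 1.09 ± 0.20. Relative to the median of all tested genes, the median log2 fold change was 0.52 for transcription and RNA processing, 0.58 for assembly factors, 0.57 for the synthetases, 0.36 for translation factors, 0.39 for the subunits with other names and 0.38 for import.

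The nuclear-encoded subunits of oxidative phosphorylation, whose complexes take up the products of the mitochondrial ribosome, were not shifted from the other genes in their median. Of 75 tested, 2 were higher and 1 lower, where 15.8% and 14.6% of all tested genes were. The median log2 fold change was 0.00 and lay 0.02 below the median of all tested genes with TMM scaling, with library totals and with DESeq2, although its sign turned to -0.02 with DESeq2 and it was 0.20 with library totals. The summed level was 31784, 34605, 37737 and 31854 CPM in WT against 30726, 32305, 32617 and 35512 CPM in Rank-knockout, and the ranges overlapped, with Rank-knockout replicate 1 below every WT library and WT replicate 3 above every Rank-knockout library. Ndufa8 and Atp5g1 rose (0.45 ± 0.14 and 0.67 ± 0.21, edgeR adjusted p = 0.0192 and 0.0276) and Cox7a1, an isoform of cytochrome c oxidase subunit VIIa, fell by 0.62 ± 0.21 (edgeR adjusted p = 0.0344). Without WT replicate 4 there was 1 gene higher and 0 lower, and the median was -0.05. Of 17 citric acid cycle enzymes, 0 rose and 1 fell, Ogdh, at 403, 401, 479 and 484 CPM in WT against 242, 284, 257 and 295 CPM in Rank-knockout (-0.71 ± 0.14, edgeR adjusted p = 0.00153), and the median of the list was 0.02 to 0.03 below that of all tested genes under each of these scalings. The 4 subunits of succinate dehydrogenase are in both lists.

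Of 8 regulators of mitochondrial biogenesis 1 was higher and 1 lower (12.5% each, beside 15.8% and 14.6% of all tested genes). With library totals 3 were higher and 1 lower, beside 26.0% and 8.72% of all tested genes. Their median of -0.03 became 0.17 with library totals, and relative to the median of all tested genes it was -0.06 and -0.05. Without WT replicate 4 their median was -0.14, also relative to all tested genes. Pprc1, a coactivator of the PGC-1 family, rose (1.24 ± 0.30, edgeR adjusted p = 0.00643), with WT replicate 1 above Rank-knockout replicate 4. Ppargc1a, which encodes PGC-1α, had 151, 218, 201 and 241 CPM in WT against 80.2, 89.0, 85.6 and 169 CPM in Rank-knockout (-0.93 ± 0.23, edgeR adjusted p = 0.00851), and Rank-knockout replicate 4 lay inside the WT range. Ppargc1b did not pass the test (0.36 ± 0.14, edgeR adjusted p = 0.0611).

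**Figure D3:**
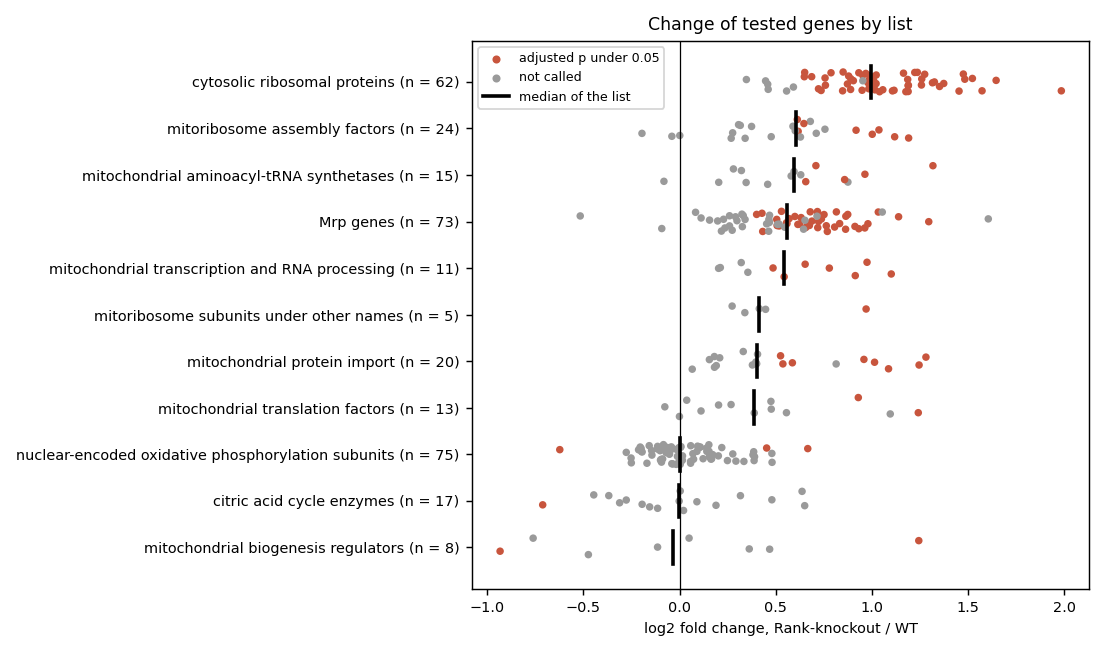
Log2 fold change of Rank-knockout over WT (horizontal axis) of the tested genes in each list, 1 point per gene, red where the edgeR adjusted p is under 0.05, with the median of each list as a black bar. The mitoribosomal protein genes (Mrp genes, median 0.56) sit with the other gene expression lists. The oxidative phosphorylation subunits, citric acid cycle enzymes and biogenesis regulators have medians near 0. Library totals would move every median up by about the shift of all genes, from 0.02 to 0.22.

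Cytosolic ribosomal proteins and markers of cell state moved with the mitoribosomal genes. Of 62 cytosolic ribosomal protein genes tested, 55 rose and 0 fell, where 15.8% of all tested genes rose and 14.6% fell. Their median log2 fold change was 0.997 (0.97 relative to all tested genes), and 48 rose without WT replicate 4. Many of these genes have near-identical pseudogenes, which makes single values uncertain. Replication and cell cycle genes rose in 21 of 21, with a summed level of 965 ± 170 CPM in WT against 2213 ± 432 CPM in Rank-knockout, and villus enterocyte markers fell in 13 of 13, from 24582 ± 2346 to 11080 ± 1371 CPM (SD, n = 4). Across libraries, WT replicate 4, which was low for most members, had the lowest sum of replication genes, 716 CPM, the lowest sum of cytosolic ribosomal proteins, 6250 CPM, and the highest sum of villus markers, 27578 CPM. Rank-knockout replicate 1, the highest of its group in 36 of 73 members, had the highest sum of replication genes, 2804 CPM, and the lowest of villus markers, 9212 CPM, but its sum of cytosolic ribosomal proteins, 17136 CPM, lay below the 17416 CPM of replicate 2 and the 20710 CPM of replicate 3. Rank-knockout replicate 4, the lowest of its group in 31 members, had the lowest sums of replication genes, 1771 CPM, and of cytosolic ribosomal proteins, 14019 CPM, whereas the highest sum of villus markers in that group, 12373 CPM, was in replicate 3 and replicate 4 had 10972 CPM. Of the Paneth cell markers 3 of 5 rose, and the goblet cell markers went both ways, with 2 of 6 higher and 3 lower (beside 15.8% and 14.6% of all tested genes). The part of the crypt and villus balance in the levels of the mitoribosomal genes was not tested.

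**Figure D4:**
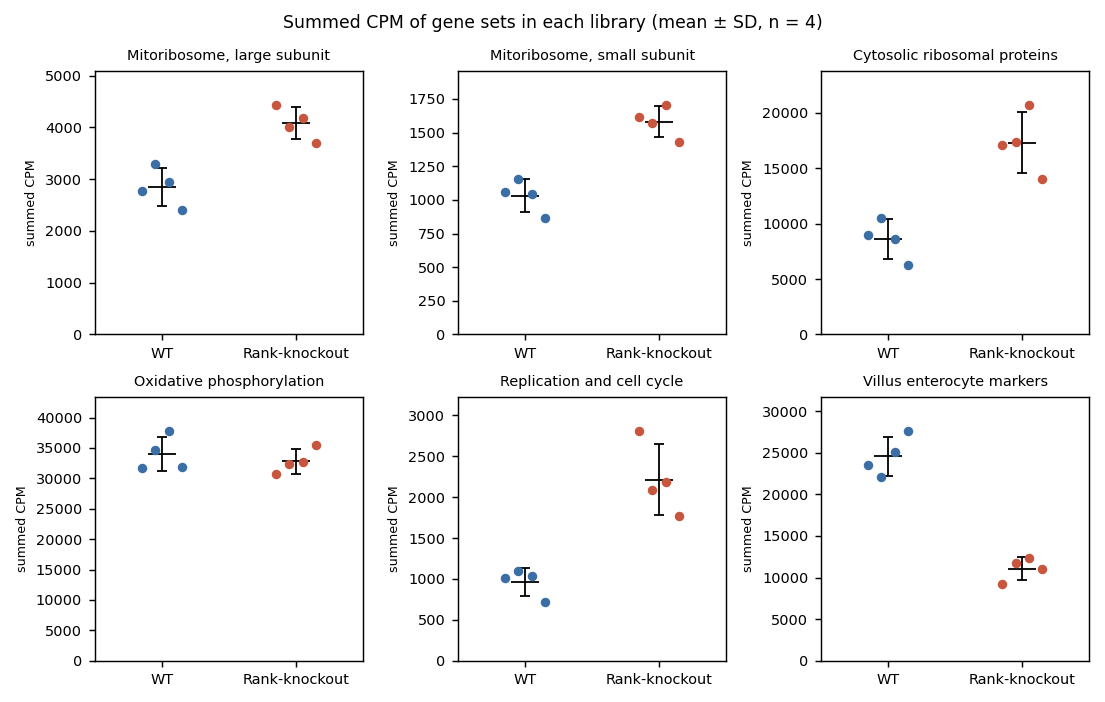
Summed CPM of 6 gene sets in each library (vertical axes, starting at 0), for WT (blue) and Rank-knockout (red), with mean ± SD (n = 4) in black. The large and small subunit sums, the cytosolic ribosomal proteins and the replication genes are higher in every Rank-knockout library and the villus markers lower, whereas the oxidative phosphorylation sums overlap.

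The promoters of the members were read to see which short sequences they share. RefSeq windows of 300 bases, from 250 before to 50 after the gene start on GRCm38.p6, matched 67 of the 76 genes, and Mrpl13, Mrpl15, Mrpl19, Mrpl38, Mrpl4, Mrpl54, Mrps28, Mrps34 and Mrps35 were not matched. On either strand, the core of ETS factor sites such as those of GABP, CCGGAAG, was found in 23 of 67 windows (34.3%), against 9.12% of 27025 windows in the whole table and 20.6% of 7680 windows of tested genes. The core of NRF1 sites, CGCATGCG, was in 6 (8.96%, against 1.91% and 4.34%), and its longer palindrome GCGCATGCGC, which contains the core, in 3 (4.48%, against 0.977% and 2.27%). The YY1 motif GATGGCGG was in 5 (7.46%, against 1.74% and 4.26%). The E-box CACGTG was also in 5 (7.46%, against 7.24% and 10.8%), and the SP1 box GGGCGG was in 33 (49.3%, against 35.9% and 66.7%). Most members are tested genes, so the second share of each pair is the closer comparison.

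The following stretches lie just upstream of the gene start and outside all annotated exons, and are shown as examples of ETS cores in genes that rose (Mrps27, Mrps22, Mrpl52 and Mrps18a) and in genes that were not called (Mrpl58 and Mrpl43), with the NRF1 palindrome of Mrpl9 at the end. Each is written 5′ to 3′ on the strand of its gene, on GRCm38.p6, with the motif in capitals.
Mrps27 (chr13:99344706-99344785, plus strand): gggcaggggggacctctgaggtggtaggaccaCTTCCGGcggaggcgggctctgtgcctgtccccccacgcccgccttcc
Mrps22 (chr9:98601680-98601809, minus strand): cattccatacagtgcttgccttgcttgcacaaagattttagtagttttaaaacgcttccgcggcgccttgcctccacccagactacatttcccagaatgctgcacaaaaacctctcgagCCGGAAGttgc
Mrpl52 (chr14:54426779-54426908, plus strand): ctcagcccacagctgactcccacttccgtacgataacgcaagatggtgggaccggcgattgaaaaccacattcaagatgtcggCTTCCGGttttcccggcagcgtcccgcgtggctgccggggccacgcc
Mrps18a (chr17:46110874-46110985, plus strand): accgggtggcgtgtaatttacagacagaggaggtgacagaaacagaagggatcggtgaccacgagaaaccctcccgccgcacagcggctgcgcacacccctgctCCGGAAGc
Mrpl58 (chr11:115403622-115403751, plus strand): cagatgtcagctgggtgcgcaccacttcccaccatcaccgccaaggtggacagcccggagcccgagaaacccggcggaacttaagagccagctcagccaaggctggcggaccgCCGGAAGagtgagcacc
Mrpl43 (chr19:45006443-45006557, minus strand): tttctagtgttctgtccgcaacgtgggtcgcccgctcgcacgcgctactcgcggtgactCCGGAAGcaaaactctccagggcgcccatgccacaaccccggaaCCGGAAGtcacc
Mrpl9 (chr3:94443206-94443317, plus strand): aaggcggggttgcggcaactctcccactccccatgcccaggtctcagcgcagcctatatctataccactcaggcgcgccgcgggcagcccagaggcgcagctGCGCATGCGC
In the stretch of Mrpl43 the core occurs at more than 1 place, and in those of Mrps27 and Mrpl52 it lies on the opposite strand. The windows of Mrpl52 and Mrpl58 hold a further core that reaches past the gene start and is not shown.

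With an ETS core 11 of 21 tested genes were called, with a median log2 fold change of 0.45, and without it 25 of 43, with a median of 0.60. Of the 5 tested genes with an NRF1 core, 0 were called by edgeR, with log2 fold changes from 0.29 to 0.64, and of the 5 with a YY1 motif 4 were called. These splits were not tested, and a match of letters is not a bound site.

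Members often started close to a gene on the opposite strand, counted whether the genes of a pair diverged or overlapped at their starts. An opposite-strand protein-coding gene with its start within 1000 bases was present for 32 of the 76 members (42.1%), against 10.8% of 21995 protein-coding genes and 17.6% of the 9396 that were tested. Mrpl46 and Mrps11 are such a pair, with starts 412 bases apart and overlapping ends. They had log2 fold changes of 0.67 ± 0.18 and 0.65 ± 0.29, of which the first passed the test (edgeR adjusted p = 0.00971 and 0.104). Among the 22 neighbours tested, 5 were higher and 1 lower, with 18 above 0 and a median of 0.24, beside 15.8% higher, 14.6% lower and 51.7% above 0 among all tested genes. These 22 include Mrpl46 and Mrps11, which are members themselves, and Mrpl46 is 1 of the 5. Members with such a neighbour were called in 15 of 32 cases and those without in 26 of 41.

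Neighbours and members did not always move together. Ncapd2, a condensin subunit that starts 100 bases from Mrpl51, had 1.16 ± 0.20 beside 0.52 for Mrpl51 (edgeR adjusted p = 0.000748 for Ncapd2). Twnk, the mitochondrial DNA helicase, had 0.76 ± 0.26 (edgeR adjusted p = 0.0388) beside Mrpl43, which was not called. Klc4, a kinesin light chain gene that starts 207 bases from Mrpl2, fell by 0.63 ± 0.14 (edgeR adjusted p = 0.00365) where Mrpl2 rose by 0.68. The respiratory chain genes Ndufs6 and Ndufb5, beside Mrpl36 and Mrpl47, had 0.06 ± 0.14 and 0.15 ± 0.13 and were not called. Reads were counted by strand, so that the genes of a pair are told apart.

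**Figure D5:**
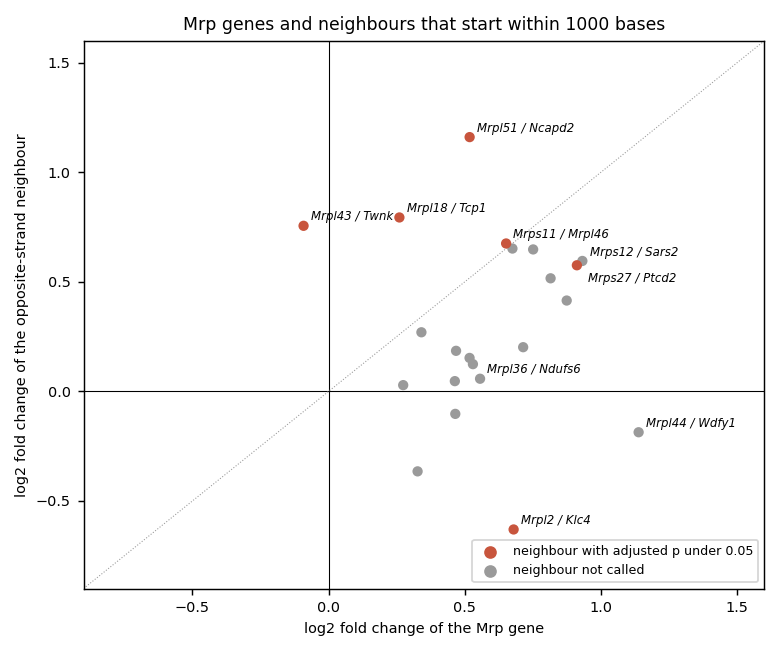
Log2 fold change of each mitoribosomal protein gene (horizontal axis) and of the opposite-strand neighbour that starts within 1000 bases (vertical axis), for the 22 tested neighbours, with the line of equality dotted and neighbours with an edgeR adjusted p under 0.05 in red. Klc4 beside Mrpl2 is the neighbour that fell, and Ncapd2, Tcp1, Twnk, Ptcd2 and Mrpl46 are those that rose.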

How the data were processed

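RNA of intestinal epithelial cells was measured in 4 WT and 4 Rank-knockout mice at lactation day 5, grouped by the genotype in the labels. Per the study's methods, the authors prepared QuantSeq FWD 3′ libraries. Reads were trimmed (BBDuk), and those that bowtie2 placed on rDNA, adapters, phiX or the mitochondrial genome were discarded. STAR placed the remaining reads on GRCm38, and featureCounts assigned sense-strand reads to Ensembl genes. The deposited values are raw counts, which the authors tested with DESeq2. No molecular identifier is described, so copies made by PCR were counted too. P values rest on the spread between libraries.

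Gene symbols and positions came from GENCODE M21 (54495 of 54532 identifiers matched). The test was that of edgeR 4.0.16, run in R 4.3.3 on the counts (robust quasi-likelihood F test, filterByExpr, TMM scaling, genotype as the term), with Benjamini-Hochberg adjustment over 9855 genes and a threshold of 0.05. CPM are counts per 1000000 of the TMM-scaled library size. Fold changes are Rank-knockout over WT. The SE was derived as the absolute log2 fold change over the square root of the F statistic, and is less stable for fold changes close to 0. Alternatives were other scalings (RLE factors, unscaled totals, totals that leave out the top 50 genes), other filters (none, or mean CPM 5 or more), other tests (DESeq2 1.42.0, and voom in limma 3.58.1), counts thinned to the shallowest library, a block for the replicate number, and leaving out single libraries. The companion lists without WT replicate 4 were added after the data were seen. Replicates differed beyond sampling noise, so none was a copy.

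Members, lists and tests were chosen with earlier results of these data known, and no set test was run. Named are the 10 members with the smallest p, the 5 largest and 5 lowest log2 fold changes, the 4 nearest 0, the 5 most abundant, members of set roles, those left out by the filter, the 3 list genes with the smallest p, and, chosen after their values were seen, other genes that make up small counts. Not every gene that the rule selects is described, and 1 marker gene is not reported here.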

Additional observations from a re-analysis of the deposited data

Results flagged for a closer look

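In groups of 4 libraries, a value far from the other 3 by Dixon's test was found in 3 of 70 sets of values over the named members and sums, where chance gives about 1 in 20, or 3.5. For Mrpl44, WT replicate 2 had 8.55 CPM, below the 18.3 to 19.8 CPM of the other WT libraries. For Mrpl3, the same library had 19.9 CPM, above the 11.9 to 12.9 CPM of the others. For Mrps36, Rank-knockout replicate 1 had 1.90 CPM, above the 0.744 to 0.892 CPM of the other Rank-knockout libraries.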

How the results depend on the processing

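Over 17 alternative settings the number of mitoribosomal protein genes called higher was 36 to 55, other than library totals, with 62, and single libraries left out, with 22 (without WT replicate 4) to 42, and 0 were lower in each. In all of them 20 members were called, with no such count made over all tested genes. With library totals the median of the members was 0.76 and the summed CPM differed by 2442, against 1778 in the scaling used. Without the 50 most abundant genes it differed by 2683. That CPM has a larger unit, since these genes held 15.7% to 20.5% of the counts, so 2683 cannot be set beside the other differences. Library totals gave 2566 genes higher and 859 lower over all genes, and single libraries left out gave 1020 to 1718 higher. The cause was not tested beyond the shift in the median of all genes.

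With library totals the calls and medians were 5 higher and 0.62 for subunits under other names, 7 and 0.59 for translation factors, 16 calls for assembly factors, 9 calls for aminoacyl-tRNA synthetases, 13 and 0.60 for import, 3 and 0.17 for biogenesis regulators, 4 and 0.20 for citric acid cycle enzymes, and 9 higher, 0 lower and 0.20 for oxidative phosphorylation subunits. Over all tested genes, library totals called 26.0% higher and 8.72% lower, and DESeq2 called 11.9% higher and 13.2% lower. DESeq2 gave 5 calls for assembly factors, 4 for transcription and RNA processing, and a median of -0.015 for oxidative phosphorylation subunits, which without WT replicate 4 had 1 higher, 0 lower and a median of -0.052. The sign of Mrpl43 turned with library totals (0.11) and without the 50 most abundant genes (0.038), and that of Mrpl27 with DESeq2 (-0.0041), and without WT replicate 2 or Rank-knockout replicate 4, over a range of -0.35 to 0.41 for single libraries left out.

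The deviations of same-numbered libraries had correlations of 0.05, 0.15, -0.14 and 0.32. The last, of the replicates 4, was the highest of all combinations of a WT and a Rank-knockout library. So few values cannot decide whether the numbers pair the samples. With the replicate block, 48 members were higher, all 41 among them, and 0 lower. The filter on low counts left 3 members untested.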
